A study of Mus musculus with 6 samples.

Results

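The receptors with which macrophages take up modified lipoproteins, glycoproteins and dying cells were examined in RNA-Seq of bone marrow-derived macrophages (BMDM). They were 10 genes chosen by symbol from the 55453 genes of the count table, namely *Msr1*, *Marco*, *Cd36*, *Scarb1*, *Mrc1*, *Cd163*, *Stab1*, *Mertk*, *Axl* and *Trem2*, and all 10 were listed. The libraries comprised 3 labelled PP2A KO (PP2Ac KO) and 3 labelled Wild Type (PP2Ac WT), all from the C57BL/6 strain. The PP2Ac KO cells came from LysM-cre PP2Ac fl/fl mice, in which cre is driven by the Lysozyme 2 promoter and removes exon 1 of *Ppp2ca* in myeloid cells, and PP2Ac WT cells came from WT mice obtained from a different supplier, for which neither cre nor the floxed allele is stated. The study used mice of both sexes at 6 to 10 weeks of age and exposed the BMDM of both genotypes to the STING agonist cGAMP (10 μg/mL for 4 hours), although the labels of these libraries give no treatment, and no untreated libraries were analysed here.

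Scavenger receptors bind polyanionic ligands, oxidized lipoproteins and microbes through several unrelated folds, and are grouped in classes. Clearance of apoptotic cells, or efferocytosis, uses receptors that recognize phosphatidylserine exposed on the dying cell, either directly or through soluble bridging proteins. Among the latter, the receptor tyrosine kinases TYRO3, AXL and MERTK bind GAS6, and TYRO3 and MERTK also protein S. AXL is known as a receptor of inflamed macrophages that is induced by type I IFN and MERTK as one of resting and antiinflammatory macrophages.

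Library totals ran from 35257156 to 47390899 counts, and 3 counts, taken as the smallest signal, equaled 0.0604 to 0.0909 counts per 1000000 (CPM, with the library total adjusted by TMM). This floor covers counting error only. The TMM factors were 0.910, 0.937 and 0.938 in PP2Ac KO libraries 1, 2 and 3, and 1.05, 1.09 and 1.10 in PP2Ac WT libraries 1, 2 and 3. They differed by genotype without overlap, which raises PP2Ac KO values against PP2Ac WT relative to scaling by library totals alone. Fold changes, overlaps and calls depend on this scaling, and scaling by totals alone was not tried. The targeted gene *Ppp2ca* had 1.01 ± 0.0988 CPM in PP2Ac KO BMDM against 205.6 ± 8.51 CPM in PP2Ac WT BMDM (SD, n = 3), and *Ppp2cb*, the gene of the other catalytic subunit, was not called (log2 fold change 0.03, adjusted p = 0.731 by edgeR). The 7 macrophage markers were counted in every library and summed to between 8490 and 8586 CPM in the PP2Ac KO libraries and between 7160 and 7709 CPM in PP2Ac WT, with 1 of the 7, *Fcgr1*, higher in PP2Ac KO by edgeR at a false discovery rate (FDR) under 0.05. With the replicate number as a block, *Csf1r*, *Cd14* and *Lyz2* were called higher too (adjusted p = 0.00280, 0.00488 and 0.0118 by edgeR). *Lyz2*, uncertain because of its close paralog *Lyz1*, had 6.58 to 10.1 CPM. Markers of neutrophils, T cells and B cells summed to at most 1.34 CPM in any library, and *Ly6g* and *Cd8a* were at 0 in all. All 5 fibroblast markers were lower in PP2Ac KO (sums of 23.3 to 35.0 CPM against 76.5 to 120.6 CPM). Of the 5 endothelial markers the 2 tested, *Kdr* and *Cdh5*, were higher (sums of 192 to 243 CPM against 80.3 to 131.0 CPM). Nearly all of these sums was *Kdr*, with 183 to 230 CPM in PP2Ac KO libraries and 76.5 to 125 CPM in PP2Ac WT libraries. *Cdh5* had 9.11 to 12.9 CPM and 2.48 to 5.74 CPM. *Tek*, *Emcn* and *Tie1* had at most 4, 6 and 13 counts in any library and were too low to be tested. Dendritic cell markers summed to 2.66 CPM or less, with 1 of the 3 tested higher (*Clec9a*, 2.38-fold, adjusted p = 0.0284 by edgeR), and those of megakaryocytes to at most 5.99 CPM in the PP2Ac KO libraries and at least 6.93 CPM in the PP2Ac WT libraries.

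Of the 10 receptor genes, 9 had enough counts to be tested, and 3 of these were higher in PP2Ac KO BMDM at FDR under 0.05 (quasi-likelihood test of edgeR, Benjamini-Hochberg adjustment across 13680 genes). These were *Axl*, *Msr1* and *Mertk*, and they were also the 3 whose PP2Ac KO libraries did not overlap the PP2Ac WT libraries in TMM-scaled CPM. Of all genes tested, 18.1% were higher and 37.1% changed in either direction, while 24% lay without overlap above and 26.8% without overlap below PP2Ac WT (50.9% in all). The 3 of 9 receptors (33.3%) thus lay above the shares of all genes in the higher direction and below the shares in either direction. No receptor was lower by edgeR at FDR under 0.05, against 19% of all genes, with 1 (*Cd36*) lower at an unadjusted p under 0.05 and 1 lower at FDR under 0.05 by both DESeq2 and limma-voom. With the replicate number as a block, 3 receptors were higher and 2 lower (*Cd36* and *Stab1*), where the background was 24.4% higher and 26.4% lower. At the study's own thresholds for upregulated genes, FDR under 0.01 with a log2 fold change beyond 1, *Axl* was the single receptor called higher, where 3.36% of all genes were, and no receptor was called lower by edgeR, where 2.99% of all genes were. The median log2 fold change of the 9 receptors was 0.05 and that of all genes was -0.02.

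**Figure D1:**
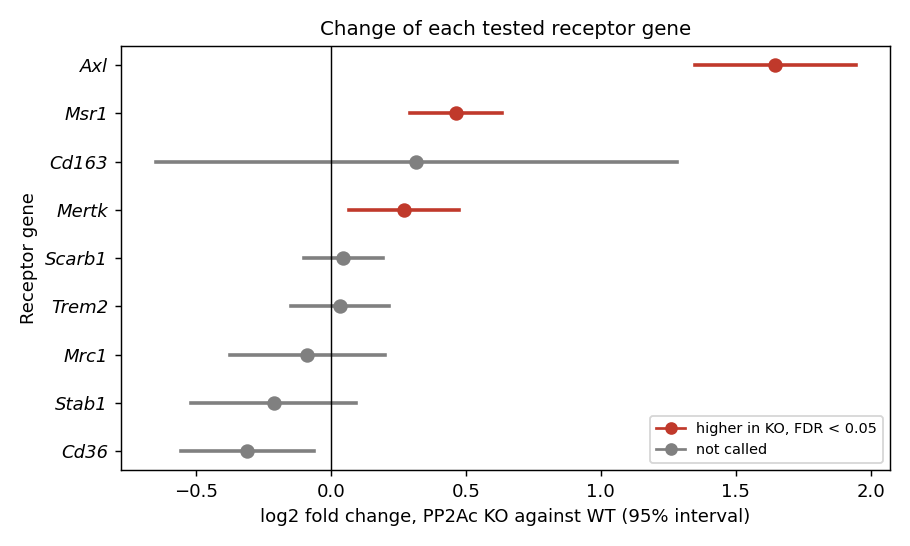
Log2 fold change of the 9 tested receptor genes between PP2Ac KO and PP2Ac WT BMDM (points) with 95% intervals from edgeR (lines). Red marks the 3 genes higher in PP2Ac KO at FDR under 0.05, and *Axl* lies at 1.65, well apart from the other 8.

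Of the 9 receptors, *Axl* differed most. It encodes the receptor tyrosine kinase that binds GAS6 on phosphatidylserine. The gene lies on the reverse strand of chromosome 7 from 25757273 to 25788705 (GRCm38, mm10). It had 806, 775 and 653 CPM in PP2Ac KO libraries 1, 2 and 3, and 275, 244 and 194 CPM in PP2Ac WT libraries 1, 2 and 3. Every PP2Ac KO library was thus far above every PP2Ac WT library, and in both genotypes library 3 was the lowest. The means were 745 ± 80.8 and 238 ± 40.7 CPM (SD, n = 3), a 3.13-fold difference or a log2 fold change of 1.65 ± 0.13 (SE; adjusted p = 6.16e-05 by edgeR). This increase ranked 143 among the 13680 genes tested. It ranged from 1.52 to 1.77 over the 13 alternative settings and passed the threshold in each. In RNA from whole cultures, more cells that express a gene and more RNA per cell cannot be told apart. Fibroblasts and endothelial cells also express *Axl*. The fibroblast markers moved in the opposite direction to *Axl*. The endothelial markers *Kdr* and *Cdh5* moved in the same direction, while *Tek*, *Tie1* and *Emcn* were too low to be tested. The part of either cell type in the result was not tested.

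*Mertk*, the gene of the related kinase through which resting macrophages engulf apoptotic cells, changed little by comparison. The gene occupies positions 128698956 to 128802894 of chromosome 2, forward strand. Its level was 146, 133 and 147 CPM in the PP2Ac KO libraries and 131, 103 and 118 CPM in the PP2Ac WT libraries. In these TMM-scaled values, the lowest PP2Ac KO library lay just above the highest PP2Ac WT library. So narrow a separation depends on the scaling, as the TMM factors raise PP2Ac KO values against PP2Ac WT. The means were 142 ± 7.51 and 118 ± 13.8 CPM (SD, n = 3), a 1.21-fold difference or a log2 fold change of 0.27 ± 0.09 (SE; adjusted p = 0.0398 by edgeR). The call was lost without PP2Ac KO library 1, 2 or 3 (adjusted p = 0.11, 0.0509 and 0.108 by edgeR), without PP2Ac WT library 2 or 3 (0.138 and 0.0668) and with upper-quartile scaling (0.0671). The third member of the kinase family, *Tyro3*, was scarce, with 1.33 ± 0.259 CPM in PP2Ac KO BMDM against 1.47 ± 0.377 CPM in PP2Ac WT BMDM (SD, n = 3), and was not called (adjusted p = 0.661 by edgeR).

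The 2 abundant kinases can be set against each other within a library, where scaling has no effect. Per kilobase of exon, there were 4.77, 5.01 and 3.83 *Axl* reads for each *Mertk* read in PP2Ac KO libraries 1, 2 and 3, and 1.81, 2.03 and 1.41 in PP2Ac WT libraries 1, 2 and 3. The ratios did not overlap between genotypes, and library 3 was the lowest in each. The mean log2 ratio of counts was 2.39 ± 0.207 in PP2Ac KO and 1.01 ± 0.268 in PP2Ac WT (SD, n = 3), a difference of 1.38 (exact permutation test, 2-sided, p = 0.1, which is the smallest that 3 against 3 libraries can give, and 0.15 adjusted over 3 pairs). Between same-numbered libraries the differences were 1.40, 1.30 and 1.44.

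**Figure D2:**
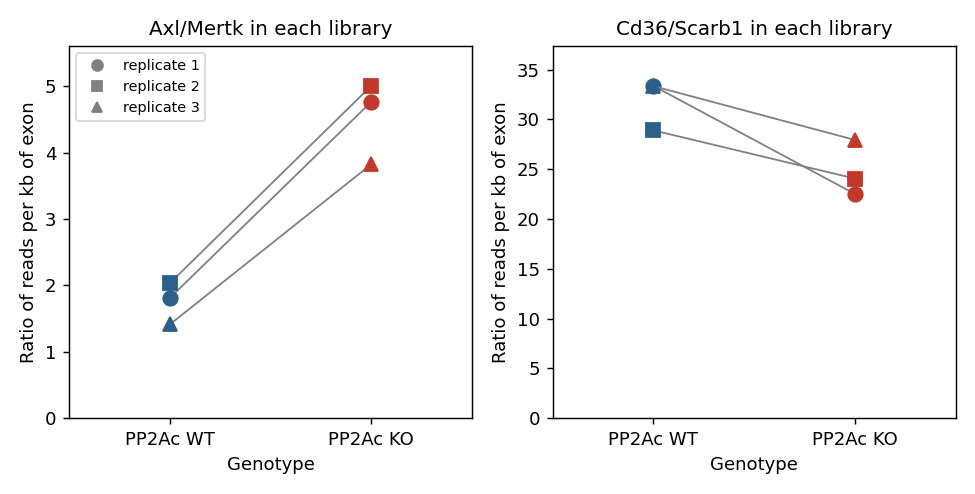
Ratio of reads per kilobase of exon of *Axl* to *Mertk* (left) and of *Cd36* to *Scarb1* (right) in each library, with lines that join same-numbered libraries of the 2 genotypes. The *Axl* to *Mertk* ratio rises in each pair, from 1.41 to 2.03 in PP2Ac WT to 3.83 to 5.01 in PP2Ac KO, and the *Cd36* to *Scarb1* ratio falls in each pair.

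The sequences before the starts of these kinase genes are shown because the genes differed in how far they moved. RefSeq (GRCm38.p6) gave a start for 8 of the 10 receptors, and the 250 bases before it were searched on both strands for GAGGAA (the core of PU.1 sites), TGCTGA (a MAF half-site), TTCNNNGAA (STAT), GGAATG (the core of TEAD sites) and the IRF motif, in which GAAA occurs again after any 2 bases. The *Axl* window is chr7:25788734-25788983 on the reverse strand and the *Mertk* window chr2:128698665-128698914 on the forward strand. Both are printed 5′ to 3′ with matches in capitals:
Axl: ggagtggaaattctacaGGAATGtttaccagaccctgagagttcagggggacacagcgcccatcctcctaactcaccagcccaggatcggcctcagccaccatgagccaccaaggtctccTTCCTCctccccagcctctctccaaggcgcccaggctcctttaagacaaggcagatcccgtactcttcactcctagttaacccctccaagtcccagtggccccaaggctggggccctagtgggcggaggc
Mertk: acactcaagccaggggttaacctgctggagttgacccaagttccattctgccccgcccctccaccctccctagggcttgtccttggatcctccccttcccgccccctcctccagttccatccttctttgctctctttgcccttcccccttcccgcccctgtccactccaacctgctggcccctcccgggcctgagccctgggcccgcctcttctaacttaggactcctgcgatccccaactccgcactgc
The *Axl* window held a TEAD core that begins at position -233 from the start and a PU.1 core, on the other strand, at -130. The *Mertk* window held none of the 5 motifs. Over the 8 receptors, 5 windows had a PU.1 core, 2 a MAF half-site, 1 a TEAD core and 0 an IRF or STAT motif. Of all 32851 windows in the table, 23.3%, 16.1% and 12.6% held the PU.1, MAF and TEAD letters, and 2.98% and 7.02% those of IRF and STAT. A match describes letters only.

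*Trem2*, whose product senses lipids and apoptotic cells and signals through the adaptor TYROBP, was second in PP2Ac WT per kilobase of annotated exon. It had 640, 707 and 730 CPM in the PP2Ac KO libraries and 624, 691 and 713 CPM in the PP2Ac WT libraries. The values interleaved, and in both genotypes library 1 was the lowest and library 3 the highest. The log2 fold change was 0.03 ± 0.08 (SE; adjusted p = 0.767 by edgeR), with a 95% interval of the fold difference from 0.903 to 1.16. The adaptor *Tyrobp* had 795 ± 55.0 CPM in PP2Ac KO BMDM against 715 ± 41.7 CPM in PP2Ac WT BMDM (SD, n = 3) and was not called (adjusted p = 0.160 by edgeR), although it was with the replicate block (0.00940).

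Among class A scavenger receptors, which bind modified lipoproteins and bacteria through a collagen-like stalk, *Msr1* was higher in PP2Ac KO. It lies on the reverse strand of chromosome 8 from 39581685 to 39642673. It had 165, 150 and 154 CPM in the PP2Ac KO libraries and 123, 106 and 111 CPM in the PP2Ac WT libraries, so that the genotypes did not overlap. The means of 156 ± 8.04 and 113 ± 8.98 CPM (SD, n = 3) gave a 1.38-fold difference or a log2 fold change of 0.46 ± 0.08 (SE; adjusted p = 0.00139 by edgeR), and every one of the 13 alternatives kept the call. *Marco*, the other class A receptor among the 10 genes and a marker of alveolar and marginal zone macrophages, was close to absent. It had 2, 8 and 11 counts in PP2Ac KO and 6, 1 and 6 counts in PP2Ac WT, and was too low to be tested. The ratio of *Msr1* to *Marco* rests on these few counts and is not read (exact permutation test, 2-sided, p = 0.5). That pair is nevertheless 1 of the 3 over which the ratio tests were adjusted.

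The class B receptors among the 10 genes, which take up oxidized lipoproteins, fatty acids and high-density lipoprotein, differed from each other. *Cd36*, on the reverse strand of chromosome 5 from 17781690 to 17888801, had 667, 723 and 871 CPM in the PP2Ac KO libraries and 909, 861 and 1030.1 CPM in the PP2Ac WT libraries. PP2Ac KO library 3 lay above PP2Ac WT library 2, so the genotypes overlapped, but in 3 of 3 same-numbered pairs the PP2Ac KO library was the lower. The log2 fold change was -0.31 ± 0.11 (SE; adjusted p = 0.0530 by edgeR), just outside the threshold. It was -0.31 with an adjusted p of 3.13e-04 in the fit with the replicate block, and -0.42 without PP2Ac KO library 3 (adjusted p = 0.0163 by edgeR). *Scarb1*, the high-density lipoprotein receptor, had 70.1, 71.2 and 73.8 CPM in the PP2Ac KO libraries and 64.5, 70.5 and 73.1 CPM in the PP2Ac WT libraries. These values interleaved, and the log2 fold change of 0.05 ± 0.06 was not called (SE; adjusted p = 0.599 by edgeR, 95% interval of the fold difference 0.934 to 1.14). Per kilobase of exon there were 22.5, 24.1 and 28.0 *Cd36* reads for each *Scarb1* read in PP2Ac KO libraries 1, 2 and 3, and 33.4, 28.9 and 33.4 in PP2Ac WT libraries 1, 2 and 3. The difference of the mean log2 ratios was -0.36 (exact permutation test, 2-sided, p = 0.1, the smallest possible, and 0.15 adjusted over 3 pairs). *Cd36* and *Scarb1* are also expressed by endothelial cells and *Cd36* by adipocytes, and the adipocyte markers were at 14.6 to 26.1 CPM in the PP2Ac KO libraries and 39.1 to 55.4 CPM in the PP2Ac WT libraries. Nearly all of that was *Fabp4*, which macrophages also express, with *Lep* at 0 in every library and *Adipoq* and *Plin1* at 3 counts or fewer. The part of other cells in the result was not tested.

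*Stab1*, the gene of a large receptor for acetylated lipoprotein and phosphatidylserine, lies on the reverse strand of chromosome 14 from 31139013 to 31168641. It had 581, 415 and 475 CPM in the PP2Ac KO libraries and 603, 478 and 621 CPM in the PP2Ac WT libraries. The genotypes overlapped, while each PP2Ac KO library was below the PP2Ac WT library of its number. The log2 fold change was -0.21 ± 0.14 (SE; adjusted p = 0.253 by edgeR), and in the fit with the replicate block it was -0.22 with an adjusted p of 0.00958, so that the block decides this call. Of the exon bases of *Stab1*, 1.09% are also in exons of *Nt5dc2* on the opposite strand.

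*Mrc1*, which encodes the mannose receptor CD206, had 156, 147 and 183 CPM in the PP2Ac KO libraries and 177, 141 and 199 CPM in the PP2Ac WT libraries. The values overlapped broadly, with library 2 the lowest and library 3 the highest in both genotypes. The log2 fold change was -0.09 ± 0.13 (SE; adjusted p = 0.629 by edgeR, 95% interval of the fold difference 0.772 to 1.15), and it was 0.03 without PP2Ac WT library 3. *Cd163*, the receptor for haptoglobin-hemoglobin complexes, had 18, 10 and 8 counts in PP2Ac KO and 7, 12 and 14 counts in PP2Ac WT. A difference was not detectable at this depth (log2 fold change 0.32, standard error 0.43, adjusted p = 0.598 by edgeR), and the interval of the fold difference ran from 0.638 to 2.43. The estimate was -0.03 without PP2Ac KO library 1.

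Levels were compared between genes as RPKM, the CPM divided by the kilobases of exon. The length covers the exons of all annotated transcripts of a gene, such as 4946 bases over 4 transcripts for *Trem2* and 8500 bases over 11 for *Scarb1*. Where the transcripts expressed are shorter, the RPKM is too low. The order, the shares and the size of per-kilobase ratios depend on this choice, and the transcripts expressed were not determined. In PP2Ac WT BMDM the order ran *Cd36* (260.1 ± 24.2 RPKM, SD, n = 3), *Trem2* (137 ± 9.33 RPKM), *Stab1* (55.2 ± 7.56 RPKM), *Axl* (47.2 ± 8.10 RPKM), *Mertk* (27.1 ± 3.19 RPKM), *Mrc1* (27.0 ± 4.58 RPKM), *Msr1* (17.9 ± 1.42 RPKM) and *Scarb1* (8.16 ± 0.522 RPKM), with *Marco* and *Cd163* under 0.08 RPKM in every PP2Ac WT library. *Stab1* and *Axl* overlapped in that order, as did *Mertk* and *Mrc1*. In PP2Ac KO BMDM, *Cd36* still led with 210.0 ± 29.4 RPKM, while *Axl* with 148 ± 16.1 RPKM now overlapped *Trem2* with 140.0 ± 9.45 RPKM and stood above *Stab1* with 47.6 ± 8.16 RPKM. *Mertk* (32.8 ± 1.73 RPKM) lay above *Mrc1* (25.4 ± 2.95 RPKM) there without overlap, and *Mrc1* overlapped *Msr1* (24.7 ± 1.27 RPKM). *Cd36* made up 43.8% to 46.7% of the RPKM summed over the 10 receptors in PP2Ac WT libraries and 29.8% to 36.7% in PP2Ac KO libraries, and *Axl* 6.28% to 9.46% and 19.6% to 25.6%. The sums themselves were 546 to 615 RPKM in PP2Ac WT and 624 to 662 RPKM in PP2Ac KO.

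**Figure D3:**
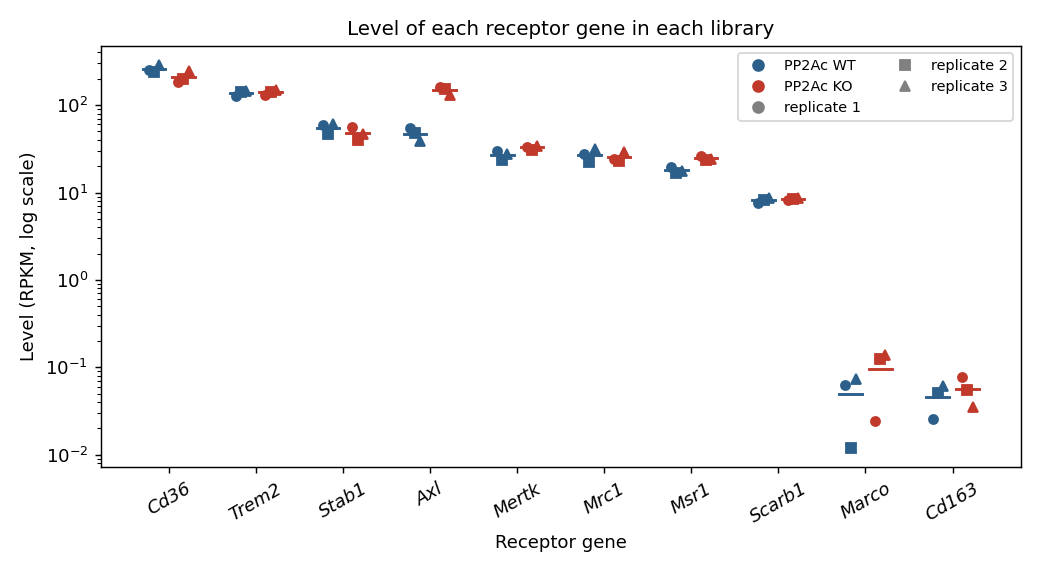
Level of the 10 receptor genes in RPKM (log axis) in each PP2Ac WT (blue) and PP2Ac KO (red) library, ordered by the PP2Ac WT mean. Symbols give the replicate number and bars the group mean. *Axl* is the gene whose groups lie farthest apart, and *Marco* and *Cd163* lie far below the other 8.

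The wider uptake pathway was covered by 7 lists with 98 genes, of which 91 were tested. At FDR under 0.05, 30 were higher and 18 lower in PP2Ac KO (52.7%, against 37.1% of all genes). Under the replicate block these became 47 and 21, while the share of all genes called rose to 50.9%. Their median log2 fold change was 0.12. The lists were written with earlier results of these data known and no set test was made.

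Bridging molecules, which link phosphatidylserine or other signals on dying cells to the receptors, split into both directions, with 4 of 13 higher and 4 lower (18.1% and 19% of all genes), or 6 and 4 under the replicate block (24.4% and 26.4% of all genes). *Gas6*, the ligand of AXL and MERTK, had 449, 466 and 429 CPM in the PP2Ac KO libraries and 335, 339 and 325 CPM in the PP2Ac WT libraries. The groups were well apart, and the log2 fold change was 0.43 ± 0.06 (SE; adjusted p = 9.17e-04 by edgeR). *Pros1*, which encodes protein S, the other ligand of MERTK, fell from 31.8 ± 2.02 to 26.5 ± 2.12 CPM (SD, n = 3), which is a log2 fold change of -0.27 (adjusted p = 0.0263 by edgeR). *Mfge8*, the bridge to αv integrins, had 416, 439 and 434 CPM in the PP2Ac KO libraries and 657, 740 and 701 CPM in the PP2Ac WT libraries. It was lower in every PP2Ac KO library, with a log2 fold change of -0.70 ± 0.07 (SE; adjusted p = 1.45e-04 by edgeR). *Clu*, which encodes clusterin, fell by 1.35 on the log2 scale, but from only 0.488 ± 0.151 CPM (SD, n = 3; adjusted p = 0.0152 by edgeR), and lost the call without PP2Ac KO library 1 or 3 or PP2Ac WT library 2. *Edil3*, of the family of *Mfge8*, fell by 0.44 on the log2 scale from 7.04 ± 0.590 CPM (SD, n = 3; adjusted p = 0.0114 by edgeR). The chains of complement C1q rose together, *C1qa* by 0.43, *C1qb* by 0.47 and *C1qc* by 0.42 on the log2 scale (adjusted p = 0.00400, 7.69e-04 and 0.00168 by edgeR). *Apoe*, the gene of an apolipoprotein that TREM2 binds, was among the most abundant at 22438 ± 824 CPM in PP2Ac KO BMDM against 19663 ± 1245 CPM in PP2Ac WT BMDM (SD, n = 3) and was not called (adjusted p = 0.103 by edgeR, or 0.00231 when blocked by replicate).

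Of 15 other tested receptors for apoptotic cells and the signals they release, 2 were higher and 6 lower, where 18.1% and 19% of all genes were. The replicate block gave 5 and 6, where it gave 24.4% and 26.4% of all genes. *Cd300lb*, an activating phosphatidylserine receptor, fell from 168 ± 18.2 to 92.8 ± 11.1 CPM (SD, n = 3), which is a log2 fold change of -0.86 (adjusted p = 3.74e-04 by edgeR). *Cd300lf*, of the same gene cluster, rose from 120 ± 7.88 to 184 ± 6.02 CPM (SD, n = 3), which is a log2 fold change of 0.61 (adjusted p = 2.35e-04 by edgeR). Among the other decreases was *Itgb3*, the gene of an integrin chain of the MFGE8 receptor (log2 fold change -0.64, adjusted p = 0.00116 by edgeR). Of the other integrin chains listed, *Itgb5* had a log2 fold change of -0.19 (adjusted p = 0.0406 by edgeR). *Itgav* had one of 0.12 (adjusted p = 0.380 by edgeR, or 0.0313 when blocked by replicate). Also lower were *P2ry2*, a receptor for nucleotides released by dying cells, and *S1pr1*, a receptor for sphingosine 1-phosphate. Their log2 fold changes were -0.69 and -0.67 (adjusted p = 0.00348 and 2.99e-04 by edgeR). *Havcr2*, which encodes TIM-3, fell from 111 ± 5.76 to 76.5 ± 3.75 CPM (SD, n = 3) without overlap. Its log2 fold change was -0.54 (adjusted p = 3.58e-04 by edgeR). *Gpr132*, a receptor for lysophospholipids, rose by 0.64 on the log2 scale with overlapping libraries (adjusted p = 0.0305 by edgeR), a call lost without PP2Ac KO library 1 or 2 or PP2Ac WT library 3. *Timd4*, a phosphatidylserine receptor of resident macrophages, averaged 0.195 CPM in the absence of PP2Ac and 0.0479 CPM in its presence, and was too low to be tested.

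Among 14 other tested scavenger receptors, 4 were higher and 2 lower (all genes, 18.1% and 19%), and 5 and 3 when blocked by replicate (all genes, 24.4% and 26.4%). *Scarf1*, an endothelial-type scavenger receptor that also binds C1q on apoptotic cells, had 75.1, 69.1 and 60.4 CPM in the PP2Ac KO libraries and 26.4, 22.7 and 22.0 CPM in the PP2Ac WT libraries. As for *Axl*, the groups lay far apart, and the endothelial markers *Kdr* and *Cdh5* moved in the same direction, by 2.13-fold and 2.64-fold. The endothelial markers *Tek*, *Tie1* and *Emcn* were too low to be tested. The part of endothelial cells in the result was not tested. The log2 fold change of *Scarf1* was 1.52 ± 0.10 (SE; adjusted p = 4.09e-05 by edgeR). *Cxcl16*, a membrane-bound chemokine that binds oxidized lipoprotein, rose from 319 ± 13.9 to 474 ± 8.54 CPM (SD, n = 3; log2 fold change 0.57, adjusted p = 2.48e-04 by edgeR). *Scara3* fell from 1.08 ± 0.249 to 0.207 ± 0.0747 CPM (SD, n = 3), which is a log2 fold change of -2.32 (adjusted p = 6.19e-04 by edgeR). *Ssc5d* and *Ager*, at under 3 CPM on average, were called higher and lower (log2 fold changes 0.69 and -0.60, adjusted p = 0.0402 and 0.0454 by edgeR), and 4 and 5 of the 6 fits without a library lost these calls. *Cd68*, the abundant lysosomal member, was not called at 1388 ± 78.6 and 1310 ± 63.0 CPM (SD, n = 3; adjusted p = 0.412 by edgeR).

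Genes of ectodomain shedding were also measured, since proteases of this group cleave MERTK, AXL and TREM2 from the cell surface. Of the 7, 3 were higher and 2 lower, beside 18.1% and 19% of all genes. *Adam17*, the main sheddase, rose by 0.42 and *Rhbdf2*, which encodes its activator iRhom2, by 0.88 on the log2 scale (adjusted p = 0.00350 and 1.16e-04 by edgeR). *Rhbdf2* had 244, 206 and 202 CPM in the PP2Ac KO libraries and 122, 116 and 116 CPM in the PP2Ac WT libraries, without overlap. *Rhbdf1*, which encodes the related iRhom1, went the other way, with a log2 fold change of -0.53 (adjusted p = 0.016 by edgeR). It had 2.43 ± 0.320 CPM in PP2Ac KO BMDM against 3.54 ± 0.278 CPM in PP2Ac WT BMDM (SD, n = 3). *Adam9* was the remaining increase (log2 fold change 0.25, adjusted p = 0.0158 by edgeR). *Timp3*, whose product inhibits ADAM17, had 8.39 ± 1.62 CPM in PP2Ac WT BMDM (SD, n = 3) and was lower by edgeR, with a log2 fold change of -1.5 (adjusted p = 8.00e-04 by edgeR). *Timp3* is also a gene of stromal cells, whose markers were lower in PP2Ac KO, and their part in this result was not tested. *Adam10*, the other sheddase of TREM2 and AXL, was not called (log2 fold change -0.07, adjusted p = 0.468 by edgeR).

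In the engulfment machinery downstream of the receptors, 6 of 19 tested genes were higher and 1 lower, which became 12 and 2 under the replicate block. The shares of all genes were 18.1% and 19%, and also rose under the block, to 24.4% and 26.4%. The largest increases were in *Plcg2*, a phospholipase that acts downstream of TREM2, and in *Rhog* and *Vav1*, of the Rac activation pathway, with log2 fold changes of 0.48, 0.35 and 0.35 (adjusted p = 0.00116, 0.00189 and 0.00195 by edgeR). Of a list of inhibitory or related receptors and the don't-eat-me signal CD47, 4 of 7 tested were higher (18.1% of all genes). With the replicate block 6 of 7 were (24.4% of all genes). The change of largest size was in *Siglech*, a gene of plasmacytoid dendritic cells, at only 0.599 ± 0.10 CPM against 0.301 ± 0.0357 CPM (SD, n = 3), a call that 4 of the 6 fits without a library lost. *Pirb*, an inhibitory receptor for MHC class I, rose by 0.45 on the log2 scale (adjusted p = 8.30e-04 by edgeR). *Cd47* itself had 1293, 1188 and 1120.3 CPM in the PP2Ac KO libraries and 979, 811 and 696 CPM in the PP2Ac WT libraries, a log2 fold change of 0.54 ± 0.12 (SE; adjusted p = 0.00696 by edgeR). Its receptor *Sirpa* was not called, with 808 ± 63.6 CPM in PP2Ac KO BMDM against 863 ± 83.5 CPM in PP2Ac WT BMDM (SD, n = 3; adjusted p = 0.443 by edgeR).

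Transcription factors known to drive receptor genes showed 7 of 16 higher and 3 lower, next to 18.1% and 19% of all genes, and 10 and 4 under the replicate block, next to 24.4% and 26.4%. The largest increases were in *Klf4*, *Nr4a1* and *Tfec*, with log2 fold changes of 0.81, 0.67 and 0.61 (adjusted p = 0.00784, 1.60e-04 and 0.00126 by edgeR). *Nr1h3*, which encodes LXRα, a sensor of oxysterols that drives *Mertk*, rose from 57.1 ± 4.78 to 77.2 ± 1.01 CPM (SD, n = 3; log2 fold change 0.44, adjusted p = 0.00126 by edgeR). *Rxra*, the gene of the shared partner of LXR and PPAR receptors, had 51.9, 53.6 and 63.6 CPM in the PP2Ac KO libraries and 91.2, 95.1 and 106 CPM in the PP2Ac WT libraries, and fell by 0.79 on the log2 scale (adjusted p = 2.78e-04 by edgeR). *Ppard* fell by 0.66 (adjusted p = 5.99e-04 by edgeR), while *Pparg*, whose product drives *Cd36*, had a log2 fold change of -0.17 (adjusted p = 0.221 by edgeR, or 0.0341 when blocked by replicate).

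**Figure D4:**
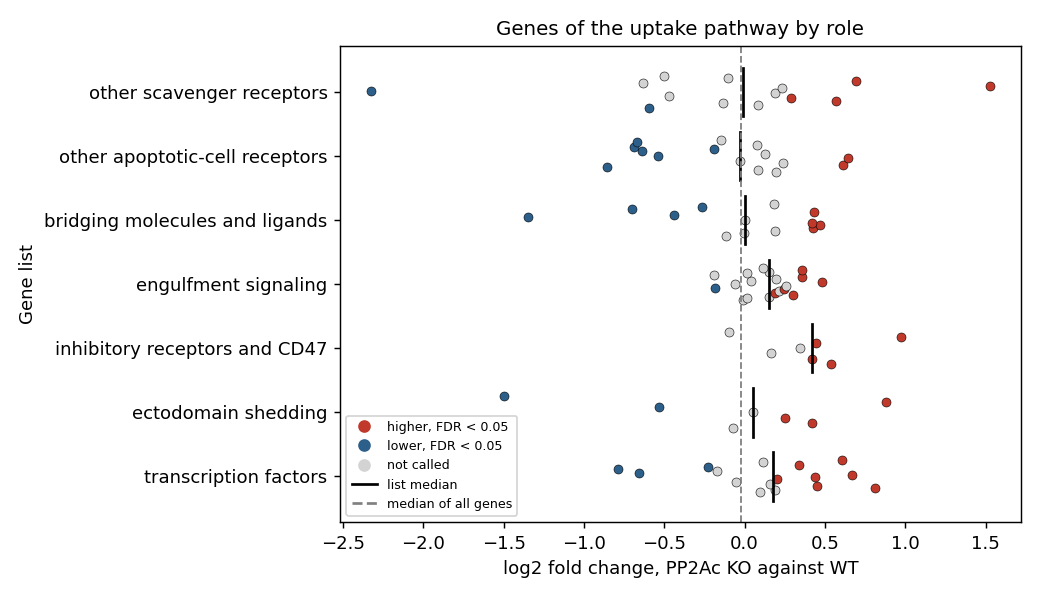
Log2 fold change between PP2Ac KO and PP2Ac WT BMDM of the tested genes of 7 lists (points, 1 for each gene), with the list median (black bar) and the median of all genes, -0.02 (dashed line). Red and blue mark genes higher and lower at FDR under 0.05. *Scarf1* is the point at 1.52 and *Scara3* the point at -2.32.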

How the data were processed

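RNA-Seq was analysed for 3 PP2Ac KO and 3 PP2Ac WT libraries of BMDM. Libraries were strand-specific, from poly(A) RNA, and sequenced paired-end. The authors deposited raw read counts per gene on mm10, without normalization. The submitters' processing notes name fastp 0.20.0, kallisto 0.46.1, STAR 2.7.1a, HTSeq 0.11.2, edgeR 3.34.0 and limma 3.48.3 with no role, and the annotation and strand setting are not given in the sources used here. Nothing states that the libraries came from separate mice, so p-values measure the spread between these libraries.

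Counts were filtered by filterByExpr (at least 10 counts, total at least 15), normalized by TMM and tested for genotype with glmQLFit and glmQLFTest in edgeR 4.0.16 (R 4.3.3), with Benjamini-Hochberg adjustment over 13680 genes. CPM used the TMM factors. RPKM used the union of all exons of a gene in GENCODE M21 (GRCm38), in which 98.1% of symbols matched once. At most 0.0726% of a receptor's 50-base transcript windows occurred in another gene. Same-numbered libraries deviated together from their group means (correlations of 0.446, 0.275 and 0.459 across genes), and the numbers were treated as a possible pairing. The labels state no pairing and other matchings of the libraries were not compared, so calls that need the block rest on this assumption. The fit with the replicate block is given where it changed the call of a receptor, marker or named gene or the count of a list. Alternatives were RLE and upper-quartile scaling, other filters, DESeq2 1.42.0, limma-voom (limma 3.58.1), the block, and each library left out. Fits were checked on simulated counts, drawn with a constant dispersion, few changed genes and no effect of the replicate number. That check cannot speak to the replicate effect or to scaling where many genes change.

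The receptors, lists and tests were chosen with earlier results of these data known. Named genes were the 10 receptors, *Ppp2ca*, markers and, on each list, up to 3 genes per direction with the largest called change. *Pros1*, *C1qc*, *Apoe*, *Tyro3*, *Tyrobp*, *Timd4*, *Havcr2*, *Cd68*, *Adam10*, *Sirpa*, *Itgb3*, *Itgb5*, *Itgav*, *Nr1h3* and *Pparg* were added after their values were seen.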

Additional observations from a re-analysis of the deposited data

How the results depend on the processing

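Over 13 alternatives, the calls of *Axl* and *Msr1* held. *Mertk* lost its call with upper-quartile scaling (log2 fold change 0.21) and without 5 of the 6 libraries in turn (range over 6, 0.19 to 0.36). *Cd36* was called lower with upper-quartile scaling (-0.37), no count filter (-0.32), DESeq2 (-0.29), limma-voom (-0.31) and the replicate block (-0.31), and ranged from -0.42 to -0.23 with a library left out. *Stab1* was called with the replicate block alone (-0.22), and ranged from -0.36 to -0.10 with a library left out. Uncalled values changed sign in *Scarb1* (-0.0172 with upper-quartile scaling, -0.0020 to 0.0884 with a library left out), *Trem2* (-0.0298 and -0.0187 to 0.0813), *Mrc1* (-0.21 to 0.0303) and *Cd163* (-0.0282 to 0.58). The number of receptors lower was 1 with upper-quartile scaling, no filter, DESeq2 and limma-voom, 2 with the replicate block, and 0 to 1 with a library left out. With the block, 47 genes of the wider lists were higher, of which 12 were of engulfment signaling, where 2 were lower, and 5 other apoptotic-cell receptors were higher. Engulfment genes lower were 0 with RLE scaling, no filter and DESeq2, 2 with upper-quartile scaling, and 0 to 1 with a library left out. Other scavenger receptors lower were 1 with RLE scaling, at least 10 counts in every library and DESeq2, and 1 to 2 with a library left out, and those higher 2 to 5. With a library left out, apoptotic-cell receptors higher were 1 to 3, bridging molecules lower 2 to 3 and shedding genes lower 1 to 2. The causes were not tested, beyond fewer libraries. Of 34 list genes under the naming rule, 25 kept their call under every alternative run. *Ssc5d*, *Ager*, *Gpr132*, *Clu*, *Elmo2*, *Siglech*, *Adam9*, *Rhbdf1* and *Rxrb* did not, and 0 changed sign. The median of all genes was -0.09 with upper-quartile scaling and -0.002 with RLE. Depth limits *Marco* and *Cd163*, with at most 11 and 18 counts, and *Cd163* had no value under the stricter count filter. The replicate block changed no other receptor's call.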
